A study of Homo sapiens with 2 samples.

Results

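Splicing factor and hnRNP genes were followed through the ATF1 peak table as every listed gene whose symbol begins with HNRNP, U2AF1 or U2AF2, with SRSF, SF3A, SF3B, PRPF, LSM or RBM before a digit, or with SNRP before a letter or digit. The table named 91 such genes among its 15064, and 0 antisense or pseudogene names had to be dropped. The RefSeq annotation of GRCh38.p14 held 127 protein-coding genes of these families, so 36 were not named in the table. The study compared chromatin from HCT116 cells, a human colon adenocarcinoma line, that had been treated with 3xFlag-ATF1, an epitope-tagged form of the factor, with input DNA. There was 1 ChIP library, made with an antibody against Flag-ATF1, and 1 input library from HCT116 cells, made with none, and neither had a replicate. Both came from cells grown with 10% serum and fixed with 1% formaldehyde. The ChIP peak table alone was used here, and the labels do not say how the tagged protein was delivered, how much of it the cells held, whether they were a clone, or whether the input cells carried it. No expression was measured, so the cell line label could not be checked by markers.

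ATF1 is a basic leucine zipper factor of the CREB family. It binds the cAMP response element (CRE), whose palindrome is TGACGTCA, and also the shorter core TGACG. Pre-mRNA splicing is carried out by the spliceosome, which is built from small nuclear RNAs wrapped by Sm or LSM rings. The U1 particle recognises the start of an intron, U2 with the SF3A and SF3B proteins the branch point, and the U4/U6 and U5 particles with the PRPF proteins complete the machine. SR proteins (SRSF) and hnRNP proteins bind exons and introns and tune which splice sites are used.

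The promoter sequences that the results turn on are shown first. Each is a RefSeq window of 300 bases of GRCh38.p14, from 250 bases before a start site to 50 after it, read along the gene. Capitals mark every TGACG core on either strand (a core on the opposite strand prints as CGTCA), together with the letters that extend it to TGACGCA or TGACGTA, or complete the full palindrome. PRPF4 and SNRPC had the highest fold enrichments among peaks named for these genes, RBM42 and RBM18 hold the full palindrome, and SRSF3 leads the SR proteins. SF3B1 and U2AF2 are shown because their windows hold no core, the first with a high and the second with a low fold enrichment. By tags their order was reversed, with 132 for SF3B1 and 531 for U2AF2. The summits of U2AF2 and RBM42, 286 and 78 bp inside their genes, lie beyond the windows shown.
PRPF4 (chr9:113275408-113275707, plus strand): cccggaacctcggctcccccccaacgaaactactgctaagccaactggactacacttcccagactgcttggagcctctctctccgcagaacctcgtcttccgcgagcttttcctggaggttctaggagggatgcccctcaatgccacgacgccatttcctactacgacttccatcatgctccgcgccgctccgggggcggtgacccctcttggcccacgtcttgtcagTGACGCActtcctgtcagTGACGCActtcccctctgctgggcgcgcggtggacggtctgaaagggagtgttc
SNRPC (chr6:34757255-34757554, plus strand): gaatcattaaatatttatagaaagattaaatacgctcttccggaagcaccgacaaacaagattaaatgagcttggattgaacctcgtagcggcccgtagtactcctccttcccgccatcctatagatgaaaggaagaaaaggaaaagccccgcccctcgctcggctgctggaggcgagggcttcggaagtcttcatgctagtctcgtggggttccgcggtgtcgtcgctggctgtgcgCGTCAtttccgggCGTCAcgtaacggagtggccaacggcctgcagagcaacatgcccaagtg
RBM42 (chr19:35628786-35629085, plus strand): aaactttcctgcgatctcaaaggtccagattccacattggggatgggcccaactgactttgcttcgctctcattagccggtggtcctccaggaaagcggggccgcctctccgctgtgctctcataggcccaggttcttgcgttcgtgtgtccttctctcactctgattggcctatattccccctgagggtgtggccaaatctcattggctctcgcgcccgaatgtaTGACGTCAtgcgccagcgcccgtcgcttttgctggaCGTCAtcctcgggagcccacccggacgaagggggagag
RBM18 (chr9:122264791-122265090, minus strand): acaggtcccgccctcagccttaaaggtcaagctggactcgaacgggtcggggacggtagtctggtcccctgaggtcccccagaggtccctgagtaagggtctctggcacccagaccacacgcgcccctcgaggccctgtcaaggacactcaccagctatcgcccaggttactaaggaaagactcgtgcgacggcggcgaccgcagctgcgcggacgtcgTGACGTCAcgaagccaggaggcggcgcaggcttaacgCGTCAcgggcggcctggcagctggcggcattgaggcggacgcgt
SRSF3 (chr6:36594112-36594411, plus strand): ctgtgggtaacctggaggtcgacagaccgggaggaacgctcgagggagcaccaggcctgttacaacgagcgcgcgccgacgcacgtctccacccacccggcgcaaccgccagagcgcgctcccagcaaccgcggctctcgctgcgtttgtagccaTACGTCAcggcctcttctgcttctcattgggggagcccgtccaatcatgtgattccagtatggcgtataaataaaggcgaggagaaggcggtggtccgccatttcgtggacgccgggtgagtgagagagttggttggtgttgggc
SF3B1 (chr2:197435044-197435343, minus strand): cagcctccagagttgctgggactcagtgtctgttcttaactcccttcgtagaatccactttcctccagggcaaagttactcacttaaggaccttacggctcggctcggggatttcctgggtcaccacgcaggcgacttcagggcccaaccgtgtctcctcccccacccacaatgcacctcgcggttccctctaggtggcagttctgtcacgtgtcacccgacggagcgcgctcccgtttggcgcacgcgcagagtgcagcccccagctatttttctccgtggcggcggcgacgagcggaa
U2AF2 (chr19:55654785-55655084, plus strand): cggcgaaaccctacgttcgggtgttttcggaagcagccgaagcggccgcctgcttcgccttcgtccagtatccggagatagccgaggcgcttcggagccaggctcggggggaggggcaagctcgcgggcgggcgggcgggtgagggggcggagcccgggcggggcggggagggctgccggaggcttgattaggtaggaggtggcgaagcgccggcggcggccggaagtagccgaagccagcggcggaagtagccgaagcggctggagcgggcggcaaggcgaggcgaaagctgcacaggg

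ATF1 peaks at these genes had higher fold enrichment than the table at large, and they lay close to start sites. Fold enrichment is the authors' own ratio per peak to a background that is not specified. Its median was 10.28 over the 91 peaks (quartiles 6.77 and 16.1), against 6.97 over all other listed peaks (quartiles 5.18 and 9.73). A fold of at least 10 was reached by 46 of the 91 peaks (50.5%, exact 95% binomial interval 39.9 to 61.2%), against 23.9% of all listed peaks. The peaks just below that fold were HNRNPA2B1 (9.58), RBM12B (9.81) and LSM12 (9.94), and those just above it HNRNPR (10.28), PRPF8 (10.46) and SF3B2 (10.76). The weak end was thinner but present, with 12 peaks below 5-fold (13.2%), against 22.6% of the other listed peaks. These are descriptions of 1 library: members of a family are not replicates, and no test between conditions was possible.

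The 91 peaks held a median of 226 tags (quartiles 117 and 398), against 161 for the other listed peaks (quartiles 59 and 310). Their median length, 1527 bp, was close to the 1551 bp of the others, and the median tags per kb of peak was 134.62 for the 91 peaks, against 87.96 for the others. Fold enrichment and tags ranked the genes differently. Across the 91 peaks Spearman's rho was 0.14 between fold and tags and 0.82 between tags and peak length, and all points come from the same library.

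**Figure D1:**
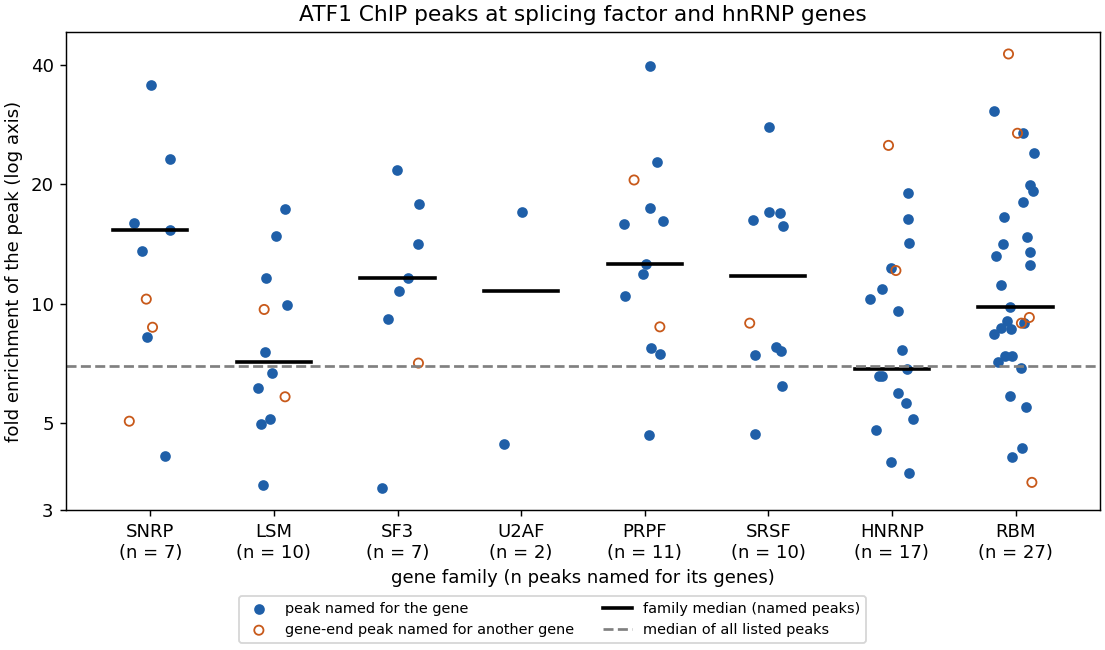
Fold enrichment (log axis) of ATF1 peaks by gene family. Filled points are the 91 peaks named for the genes, open points are 16 gene-end peaks named for another gene, and black bars are family medians of named peaks. The SNRP median of 15.33 is the highest and the HNRNP median of 6.84 the lowest, next to a median of 6.97 over all listed peaks (dashed).

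Among the snRNP proteins, SNRPC stood at the top. It encodes the C protein of U1, which helps U1 hold the start of the intron, and its exonic peak (chr6:34756804-34757973) reached 35.68-fold with 158 tags (exact 95% Poisson interval 134 to 185). SNRPB2, a U2 protein, followed at 23.16-fold with 84 tags (67.0 to 104). The Sm ring gene SNRPD1 had 15.94-fold with 247 tags. The lowest of the 7 was SNRPA1, another U2 protein, at 4.12-fold, although its 245 tags nearly equalled those of SNRPD1. Fold of at least 10 was found at 5 of the 7 (71.4%, interval 29.0 to 96.3%), against 23.9% of all listed peaks. All 7 peaks were classed as exonic by the authors, against 43.5% of all listed peaks.

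The LSM proteins form the ring of U6 and, in other combinations, act in mRNA decay and histone mRNA processing. Their 10 peaks had a median of 7.11-fold, and 3 reached 10-fold. LSM2, a member of the U6 ring, was highest at 17.33-fold with 316 tags (chr6:31806231-31807501). LSM10, of the U7 particle that processes histone mRNA, had 14.81-fold with 283 tags, and LSM8, which marks the nuclear U6 ring, 11.61-fold with 226 tags. LSM7 was lowest, at 3.47-fold with 194 tags, and its summit lay 3282 bp inside the gene from its start site.

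The branch point proteins covered almost the whole range. SF3B1, which clamps the branch point and is recurrently mutated in blood cancers, had an upstream peak of 21.80-fold with 132 tags (chr2:197434393-197435663). Its summit was 15 bp before the start site. SF3B4 had 17.84-fold with 119 tags in a peak also at an end of MTMR11, and SF3A3 had 14.13-fold with 71 tags. SF3A2 had the lowest fold of all 91 peaks, 3.41, with 1013 tags in a peak of 11873 bp, the longest of the 91 (chr19:2242911-2254783). Its summit was 8627 bp from the start site, while a separate peak named for PLEKHJ1 lay 394 bp from an end of SF3A2 at 4.55-fold.

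U2AF reads the end of the intron. U2AF2, its large subunit, had 4.42-fold enrichment with 531 tags in a peak of 3995 bp (chr19:55652043-55656037). U2AF1L4, a relative of the small subunit, had 17.05-fold with 148 tags, in a peak that also touched an end of PSENEN. U2AF1, the small subunit itself, was not named and had no gene-end peak, meaning no summit within 1 kb of either annotated end.

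PRPF genes had the named peak with the highest fold. PRPF4, a U4/U6 protein, reached 39.86-fold with 247 tags (217 to 280), above 99.3% of listed peaks (chr9:113274872-113276353), in a peak that also touched an end of CDC26. PRPF18, which acts in the second catalytic step, had 17.39-fold with 98 tags. PRPF8, the scaffold at the heart of the spliceosome, had 10.46-fold with 305 tags, and its summit lay 46 bp inside the gene. PRPF6, which bridges U5 to U4/U6, had 12.60-fold with 819 tags in a peak of 4541 bp that also touched an end of SAMD10. PRPF19, a ubiquitin ligase of the active spliceosome, was lowest at 4.64-fold. In all, 8 of the 11 PRPF peaks reached 10-fold (72.7%, interval 39.0 to 94.0%), against 23.9% of all listed peaks.

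Among the SR proteins, SRSF3 led at 28.00-fold with 329 tags (chr6:36593421-36594894), with its summit 128 bp before the start site. SRSF1, a prototype of the SR proteins, had 17.06-fold with 321 tags, and SRSF6 had 16.95-fold with 534 tags. SRSF7 was lowest at 4.68-fold with 238 tags. The values fell into an upper set of 5, between 15.72 and 28.00, and a lower set of 5, between 4.68 and 7.75. The summit of SRSF11 was 15677 bp inside the gene as annotated, yet 21 bp before an internal start site. A second peak, named for the neighbour LRRC40, lay 49 bp from the outer end of SRSF11 at 66.09-fold with 470 tags, higher than any peak named for a member.

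Of the 8 families, the hnRNP genes had the highest median tags and the lowest median fold. Their 17 peaks had medians of 399 tags and 6.84-fold, against 162 tags and 6.97-fold over all listed peaks. HNRNPDL, a close relative of HNRNPD, had the most tags of all members, 1054 (991 to 1120), at 19.07-fold (chr4:82428440-82431817). HNRNPK, which binds C-rich RNA, had 16.35-fold with 636 tags in a peak shared with RMI1, and HNRNPA0 had 14.24-fold with 671 tags. HNRNPU, a nuclear scaffold protein, had 832 tags at 12.29-fold. HNRNPA2B1, an abundant hnRNP core protein, had 9.58-fold with 525 tags, 5 bp before its start site and in a peak also at an end of CBX3. HNRNPAB was lowest at 3.73-fold with 399 tags. Of the 17, 6 reached 10-fold (35.3%, interval 14.2 to 61.7%), against 23.9% of all listed peaks, a share inside that interval.

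RBM genes encode RNA-binding proteins of several kinds, and not all act in splicing. RBM42 had 30.75-fold with 469 tags (chr19:35628370-35629983) and RBM25, a regulator of alternative splicing, 23.97-fold with 145 tags. RBM10, another regulator of exon choice, had 19.23-fold with 178 tags in a peak that also touched NDUFB11. RBM7, of a nuclear RNA decay complex, had 19.93-fold with 266 tags in a peak that also touched C11orf71. The peak named for the readthrough gene RBM14-RBM4, 26.95-fold with 114 tags, lay 309 bp from the start site of RBM4, a splicing regulator not named in the table. RBM20, known for titin splicing in the heart, was lowest at 4.09-fold. Of the 27 RBM peaks, 13 reached 10-fold (48.1%, interval 28.7 to 68.1%), against 23.9% of all listed peaks. The RBM33 summit was the farthest from an end of its gene, 66788 bp.

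**Figure D2:**
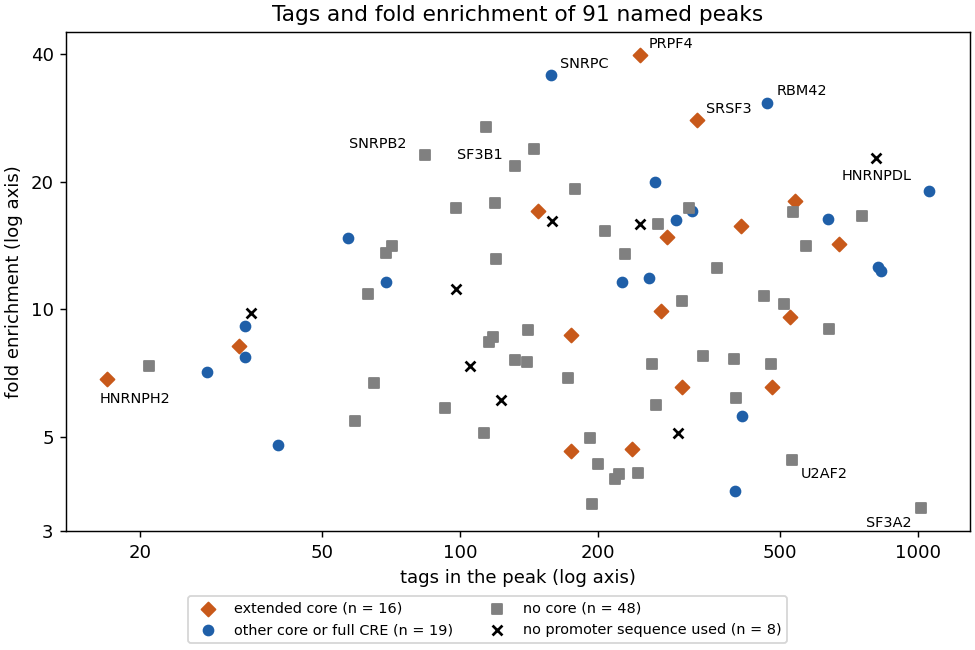
Tags (log axis) against fold enrichment (log axis) for the 91 named peaks, marked by what the promoter window holds. PRPF4 is at the top with 39.86-fold, HNRNPDL at the right with 1054 tags, and SF3A2 combines 1013 tags with the lowest fold, 3.41.

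Summits clustered at start sites. Strand and start sites came from the RefSeq windows, which covered 83 of the 91 genes. PRPF4B was matched under its current name PRP4K, and LSM14A, LSM6, PRPF3, RBM12B, RBM39, RBM43 and SNRPD1 were among those with no window. Of the 83 summits, 69 were within 1 kb of a start site of their own gene (83.1%), against 63.7% of all listed genes with a window. Similar classes of housekeeping genes had shares on either side of this, with 97.0% for the proteasome, 91.7% for cytosolic ribosomal proteins and 76.9% for DEAD and DEAH box genes. Within 100 bp the counts were 37 of 83 (44.6%), against 34.8% for the other listed genes. The median absolute distance was 112 bp, against 229 bp. The signed median was 3 bp inside the gene, with quartiles 74.5 bp upstream and 237.5 bp downstream. By the authors' classes 52 peaks were exonic, 21 intronic, 16 upstream and 2 downstream, the last being LSM4 and RBM19.

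**Figure D3:**
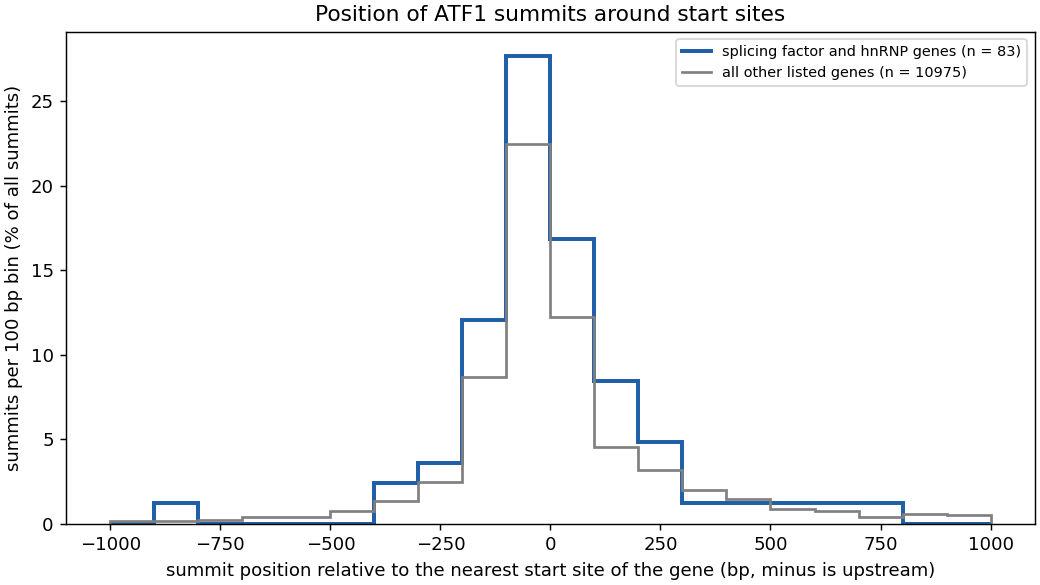
Position of ATF1 summits relative to the nearest start site of the assigned gene, in 100 bp bins between 1000 bp upstream and 1000 bp downstream, as a percentage of all summits with a start site. The 83 splicing factor and hnRNP genes (blue) and the 10975 other listed genes (grey) both have their highest bin in the 100 bp before the start.

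Because the table gives 1 name per peak, members without an entry were looked up by position. Of all 127 reference genes, 96 had a gene-end peak (75.6%, interval 67.2 to 82.8%), against 48.0% of all protein-coding genes. That count includes 80 of the 91 named genes and 16 of the 36 that were not named. The 16 had a median of 9.07-fold, and 6 reached 10-fold. Their peaks were named for 9 other genes outside these families, for 5 uncharacterised LOC genes and for 2 members. RBM18 had the highest fold, in a peak named for MRRF with 42.76-fold and 521 tags (477 to 568). That fold is above those of all peaks named for a member. RBM4 had the RBM14-RBM4 peak described above. HNRNPA3 had 25.11-fold with 616 tags in a peak named for LOC105373759, and PRPF38A 20.53-fold with 74 tags in a peak named for ORC1, a subunit of the origin recognition complex. HNRNPD had 12.12-fold and SNRPF 10.26-fold.

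The remaining 10 of these 16 lay below 10-fold. SRSF2, an SR protein of nuclear speckles, had 8.92-fold with 650 tags in a peak named for MFSD11, 56 bp from the end of SRSF2. LSM1 had 9.66-fold, RBM48 9.22-fold, PRPF39 8.73-fold and SNRPD2 8.71-fold. RBM27-POU4F3 shared the RBM27 peak at 8.92-fold. SF3B6 had 7.07-fold, LSM5 5.81-fold, SNRPD3 5.04-fold and RBM46 3.53-fold.

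No gene-end peak was listed for 20 of the unnamed members. They were HNRNPA1, HNRNPA1L2, HNRNPA1L3, HNRNPCL1, HNRNPCL2, HNRNPCL3, HNRNPCL4, LSM3, RBM8A, RBM11, RBM23, RBM24, RBM26, RBM41, RBM44, SF3B3, SNRPE, SNRPN, SRSF12 and U2AF1. HNRNPA1, the HNRNPCL genes and U2AF1 have near-identical copies elsewhere in the genome, so their entries are uncertain, since no label says how reads that match several places were handled. The absence of a listed peak is not evidence that ATF1 was absent, since the depth of the library is unknown. Further peaks of a named gene may also be unlisted.

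The 15064 peaks carry 15064 distinct gene names, so no name is repeated. How the peak of each name was chosen is unknown, so a further peak of the same gene may be unlisted. For 17 named genes the listed peak was not at an annotated end of the gene. In 6 of them another peak lay at the end. SF3A1, of the U2 particle, had its own peak 15859 bp inside at 9.12-fold with 34 tags, while a peak named for CCDC157 lay 81 bp from its end at 15.05-fold with 397 tags. RBM12 likewise had 7.12-fold with 28 tags 12073 bp inside, and a peak named for CPNE1 26 bp from its end at 14.22-fold with 267 tags. Over the 6 genes the peak at the end had the higher fold in 4 and more tags in 5. RBM12B and RBM14-RBM4 had the higher fold in their own peak, and SF3A2 had more tags in its own. Of the 11 with no other listed peak at an end, HNRNPF and HNRNPH1 had summits 109 and 50 bp before an internal start site. The 9 others were LSM7, HNRNPL, RBM38, RBM33, LSM14B, LSM4, SNRPB, HNRNPU and PRPF4B. The PRPF4B summit lay 667 bp from the gene start given in the table but 2565 bp before the RefSeq start site.

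Peaks at the ends of several genes were more frequent than in the table at large. A peak at the ends of 2 or more protein-coding genes was found for 20 of the 91 (22.0%), readthrough genes included, against 9.05% of all listed peaks. The share was 28.9% for DEAD and DEAH box genes, 18.4% for the proteasome and 14.5% for cytosolic ribosomal proteins. Either end of a gene counts here, so these are not all promoters. Counting start sites alone, 22 of 111 genes with a window faced a second gene starting within 1 kb upstream on the opposite strand (19.8%, interval 12.9 to 28.5%), against 12.3% of all protein-coding genes with a window. Start sites were 42 bp apart at RBM18 and MRRF, 86 bp at PRPF4 and CDC26, 144 bp at HNRNPK and RMI1, and 179 bp at PRPF38A and ORC1. The peaks named for the 15 listed members of such pairs had a median of 13.61-fold, and those of the 68 others 10.11-fold. Of the 15 summits, those of SF3A1, SF3A2 and SRSF11 lay 15859, 8627 and 15663 bp from the shared promoter, so their folds are not of peaks there. Over all listed protein-coding genes these medians were 8.14 and 6.97. A peak in such a pair cannot be assigned to either gene.

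The CRE core TGACG, searched on both strands, was found in a promoter window of 48 of 111 genes (43.2%, interval 33.9 to 53.0%), against 34.5% of all 15812 protein-coding genes with a window. Among genes named in the table the gap was smaller, with 42.2% of 83 splicing factor and hnRNP genes, against 39.4% of all 9841 listed protein-coding genes. The full palindrome was rare, at 3 of 111 (2.70%), against 3.00%. Those 3 are RBM12, RBM18 and RBM42. The core extended to TGACGCA or TGACGTA was found in 22 of 111 (19.8%, interval 12.9 to 28.5%), against 5.76%. Among genes named in the table these shares were 19.3%, against 6.62%. Each extended match contains the core and is counted in it too. TGACGCA alone was in 13 genes (11.7%, against 3.81%) and TGACGTA in 10 (9.01%, against 2.08%). Among genes with at least 20 CpG in a window, a restriction chosen after the data were seen, the extended core was in 20 of 89 (22.5%), against 7.08%. Median GC content of the windows was 62.7%, against 64.7%, and the median number of CpG 28, against 24.

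**Figure D4:**
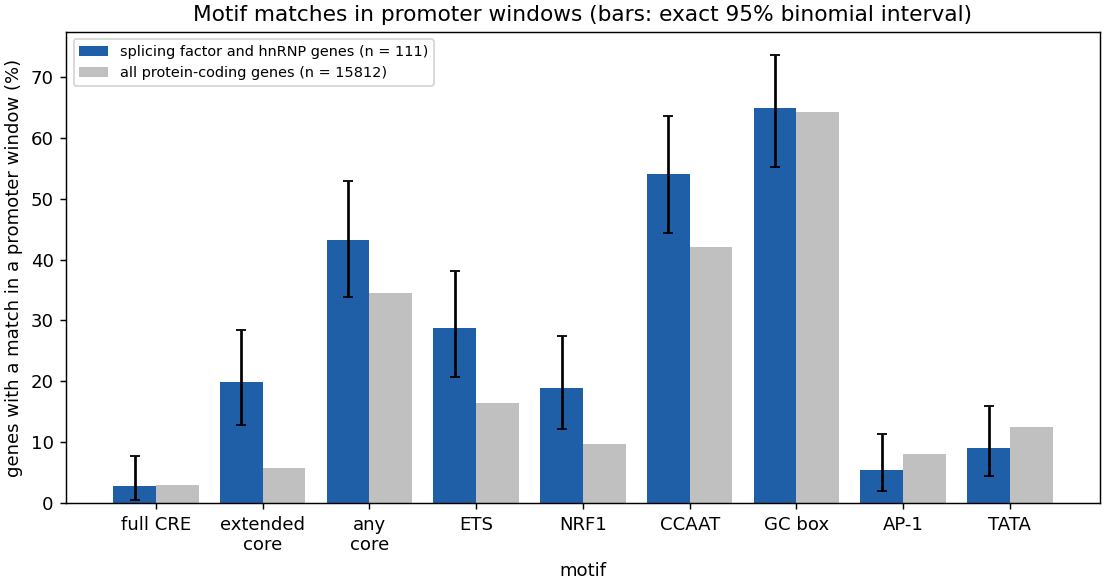
Share of genes with each motif in a promoter window, for 111 splicing factor and hnRNP genes (blue, error bars are exact 95% binomial intervals) and 15812 protein-coding genes (grey). The extended core stands at 19.8% and 5.76%, while the full CRE stands at 2.70% and 3.00%.

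Most matches of the extended core in the promoter windows lay within 100 bp before the start site. Of the 26 matches, 23 were upstream of the start site and 19 of those within 100 bp. The median over all 26 was 42 bp upstream. The windows hold far more bases before the start site than after it, so a majority upstream is largely set by the search. Summits also cluster at start sites, so closeness of core and summit follows in part from where the windows lie. Neither position is compared here with that in other genes. The extended core was within 200 bp of the named summit in 10 of 16 listed genes. For these 10 the nearest match is given below on the strand on which it reads TGACG, with 8 bases on either side. The extended core is in capitals and is shared because the matches were chosen by it. The flanks, which were not part of the choice, differ.
HNRNPA0 (chr5:137754389-137754411, minus strand): gtcggcggTGACGCAcgcctcgg
LSM12 (chr17:44066680-44066702, minus strand): ccggcgtgTGACGCAagcacgct
LSM10 (chr1:36397898-36397920, minus strand): cagagcacTGACGCActctgcgc
HNRNPH1 (chr5:179623746-179623768, minus strand): gctctttgTGACGCAacggggcg
SRSF3 (chr6:36594259-36594281, minus strand): agaggccgTGACGTAtggctaca
PRPF4 (chr9:113275646-113275668, plus strand): cctgtcagTGACGCActtcccct
HNRNPA2B1 (chr7:26200800-26200822, minus strand): cgacggccTGACGTAgcggaaga
RBM22 (chr5:150701115-150701137, minus strand): cgacgtcaTGACGCAaaggcccc
RBM4B (chr11:66678054-66678076, minus strand): agcccctcTGACGCAgcagtggc
U2AF1L4 (chr19:35745416-35745438, minus strand): aacggaagTGACGTAagagcagc

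The match in HNRNPA0 and the match in LSM12 were each 5 bp from the summit. PRPF4 held the extended core in 2 copies 18 bp apart, visible in its window above, and they were 45 and 63 bp from the summit. SNRPC carried 2 plain cores on the opposite strand close to the start site. In RBM42 the full palindrome was 98 bp from the summit, and in RBM18 12 bp from the summit of the peak named for MRRF. SNRPN, which is imprinted, was not named and had no gene-end peak, also held the extended core. Its matches lie at internal start sites, where peaks named for other genes were not looked up. A match of letters is a description and not a site.

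Within the families, the order of median fold with and without these letters differed between the core and the extended core. The 35 listed genes with a core had a median of 11.89-fold (quartiles 7.43 and 16.7), and the 48 without one 8.76-fold (quartiles 6.12 and 14.4). Over all listed protein-coding genes the medians were 8.20 and 6.61. For the extended core the order was the other way round, with 9.76-fold in the 16 genes that held it and 10.46-fold in the 67 that did not. Over all listed protein-coding genes those medians were 10.05 and 6.97. The window is not at the peak of every gene. Among members with a summit within 1 kb of their own start, 30 with a core had 13.42-fold and 39 without one 10.28-fold. Over all listed protein-coding genes with such summits these medians were 9.73 and 6.785. For the extended core the members had 9.94-fold with it and 11.605-fold without, against 12.42 and 7.535 over all. Of the 8 members above 20-fold with a window, 4 held a core, and SF3B1, SNRPB2, RBM25 and RBM14-RBM4 did not. Among all listed protein-coding genes of at least 20-fold with a window, 406 of 575 held a core (70.6%). The RBM14-RBM4 summit lay 21764 bp from its start site, so its window is not at its peak. The extended core was present at low fold too, in PRPF19 (4.64) and SRSF7 (4.68). These differences were not tested.

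Other motifs, searched on both strands of the same windows, also differed in frequency. The ETS motif CCGGAAG was in 32 of 111 genes (28.8%, against 16.5% of all protein-coding genes). The NRF1 motif (GCGC, any base, then TGCGC) was in 21 (18.9%, against 9.68%) and CCAAT in 60 (54.1%, against 42.1%). The GC box GGGCGG was in 72 (64.9%, against 64.3%), but among genes named in the table it was in 62.7% of these genes, against 76.7% of all listed protein-coding genes. The AP-1 motif TGANTCA was in 6 (5.41%, against 8.04%) and TATAAA in 10 (9.01%, against 12.4%). Among genes named in the table TATAAA was in 9.64%, against 8.95%, so that its order depended on the genes compared. The families were mixed. CCAAT was in a window of 19 of 23 HNRNP genes, but of 1 of 8 SF3, 2 of 11 SRSF and 0 of 3 U2AF genes. CCGGAAG was in a window of 6 of 8 SF3 and 7 of 11 SNRP genes. It was in 3 of 23 HNRNP, 2 of 11 SRSF and 2 of 10 LSM genes. These families were picked after the values were seen, and their differences were not tested.

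Among other genes of the splicing pathway, 56 of 73 were named in the table. A gene-end peak was found for 52 of the 73 (71.2%), against 48.0% of all protein-coding genes. Of the 56, 23 reached 10-fold (41.1%), against 23.9% of all listed peaks. Their median was 8.07-fold, against 6.97 over all listed peaks. EFTUD2, the GTPase of U5, had 64.67-fold with 286 tags, and the splicing regulator TRA2A 39.10-fold with 454 tags. XAB2 had 31.44-fold, LUC7L2 27.19-fold and CWC22 24.21-fold. The splicing factor and hnRNP peaks were set beside 3 other housekeeping classes. Their 50.5% at or above 10-fold compares with 57.8% of 45 DEAD and DEAH box genes, 44.7% of 38 proteasome genes and 40.3% of 62 cytosolic ribosomal protein genes. Their median of 10.28-fold compares with 11.15-fold for the DEAD and DEAH box genes, 9.29-fold for the proteasome and 9.20-fold for the ribosomal proteins. The differences between these classes were not tested.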

How the data were processed

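The single table used lists ATF1 ChIP peaks of 1 library. Per the labels' protocols, fragments of 200 to 400 bp were precipitated with 5 µg of antibody. CASAVA, Bowtie2 and bedtools with hg38 are named in the submitters' processing notes. The peak caller, with its settings and control, was not given in the sources used here. Tag counts were deposited as whole numbers without scaling. Fold enrichment was deposited as a linear ratio whose background is unspecified, with a lowest value of 3. The score in the deposited table, with a lowest value of 50, has no stated basis and was not used in comparisons. Library depth is unknown, so intervals (exact binomial over genes, exact Poisson over tags, 95%) cover counting error only.

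Peaks were joined to RefSeq genes and promoter windows (GRCh38.p14, the assembly of hg38) by symbol, then by an older name held by 1 gene. Of the 91 members, 90 matched a current symbol. A gene-end peak has its summit no more than 1 kb from the lower or higher coordinate end of a protein-coding gene. A gene held a motif when any of its windows did. No replicate exists, so no test was made. Motif and distance steps were tested on simulated data. Members, lists and thresholds were chosen with earlier results of these data known. Genes named were the 3 highest and the lowest by fold in each of 8 families, extremes of tags, length and distance, the 6 strongest shared peaks, a fixed set of core splicing genes, unnamed members, and the 5 highest of the other pathway genes. Others were chosen after their values were seen, and some results under this rule are not reported here. Alternatives changed the fold threshold, the window, the members and the motif. Analyses used Python 3.11.15, numpy 2.4.6, pandas 2.3.3, scipy 1.17.1 and matplotlib 3.10.9.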

Additional observations from a re-analysis of the deposited data

How the results depend on the processing

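Gene-end peaks were found for between 67.7% and 82.7% of genes with windows of 500 bp or 5 kb, any overlap, peaks of at least 5-fold, or without RBM or readthrough genes. With peaks of at least 10-fold the share was 40.2%, against 16.5% of all protein-coding genes. For all protein-coding genes it was 41.3% at 500 bp, 61.6% at 5 kb, 53.9% with any overlap and 38.5% with peaks of at least 5-fold. The share of named peaks past the fold threshold was 86.8% at 5-fold, against 77.5% of all listed peaks. At 20-fold it was 9.89%, against 5.1%. The share with a CRE-type motif was 2.70% for the full palindrome, against 3.00% of all protein-coding genes with a window. It was 19.8% for the extended core (against 5.76%), and 22.5% in genes with at least 20 CpG (against 7.08%). For the core from 100 bases before the start site onwards it was 36.0% (against 23.2%). These shifts follow from the definitions themselves, each narrower or, at 5-fold, wider than the main one. Median fold stayed between 10.11 and 11.60 without RBM genes, without readthrough genes and for gene-end peaks only. Of the named peaks 82.4% were gene-end peaks, against 55.9% of the other listed peaks. The median fold of gene-end peaks among the others is not given here, so the 11.60 has no value beside it. No paired analysis was possible because the series has 1 library per group and no test. The unknown depth and the unknown choice of the peak listed for each name limit any statement on genes without a listed peak.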

Other observations

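Some members lie close together. The summits of RBM14, RBM14-RBM4 and RBM4B on chromosome 11 followed each other at distances of 21391 and 39545 bp, with 9.01, 26.95 and 18.06-fold enrichment. RBM42 and U2AF1L4 on chromosome 19 were 116137 bp apart, with 30.75 and 17.05-fold. SF3A2 and LSM7, 79853 bp apart on the same chromosome, had the lowest folds of all members, 3.41 and 3.47. These pairs were picked after the values were seen, and no test of the pattern was made.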
